A study of Drosophila melanogaster with 6 samples.

Results

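The bithorax complex is the cluster of Hox genes on the right arm of chromosome 3 (3R) of Drosophila melanogaster that holds Ubx, abd-A and Abd-B. Its DNA copy number in larval salivary glands was described here from the 10 kb windows of the chromosome arm list that lie on 3R and start between 16650000 and 16970000 on the dm6 assembly. These were 29 windows of the 2189 different windows listed at under-replicated domains, of which 808 lay on chromosome arms and 184 on the arm of 3R. They adjoin each other without a gap from 16670001 to 16960000, a stretch of 290 kb, and none was listed more than once or held no reads. A window entered the list because it lay in a domain with reduced read depth in the control genotype, so a low copy number in that genotype was a condition of the list and is given as a description. Windows outside the list are not analysed here.

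Genomic DNA came from salivary glands of female wandering larvae of 3 genotypes, with 2 biological replicates of 25 glands each and 20 ng of DNA per library. In all 3 genotypes the endogenous cluster of replication-dependent histone genes was deleted on both homologs (ΔHisC, twi-GAL4 over ΔHisC, UAS-2xEYFP), and a transgene supplied these histone genes. In the control, Histone Wild Type (HWT), the transgene was unmutated. In H3K9R it carried a substitution of lysine 9 of H3 by arginine, and in H4K16R lysine 16 of H4 was replaced by arginine instead. Histones made from genes outside the deleted cluster stayed wild type, which limits both mutants as models of a full loss of the residue. The label salivary gland could not be checked, since genomic windows carry no expression.

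Copy number is given as the normalized read count, in reads per 1000000 reads of the library (RPM), and the deposited values are averages of the 2 replicates with no SD. Each average equalled whole reads of a pair of libraries over their totals, which allowed the reads of each library to be derived. Since an average cannot show the replicate to which a library belongs, the libraries of a genotype are called deeper and shallower. They held between 18681787 and 26685461 reads. A bithorax window held between 285 reads (95% Poisson interval 253 to 320, covering counting error only) and 1966 reads in a library. Over these windows the libraries of a genotype differed by a median of 0.05 in log2 RPM (absolute value) for HWT, 0.11 for H3K9R and 0.06 for H4K16R.

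The proteins of the bithorax complex are transcription factors that give the segments of the thorax and abdomen their identity. In tissues where they are off, among them the salivary gland, Polycomb group proteins hold the whole cluster in silent chromatin. In polytene salivary gland chromosomes such long silent domains on the arms, called intercalary heterochromatin, replicate late and often do not finish replication in each endocycle, which leaves them with a lower copy number than the rest of the arm. Methylation of H3K9 is the mark of pericentric heterochromatin, whereas acetylation of H4K16 is linked with open chromatin.

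All 3 Hox genes lie on the minus strand. The annotation places Ubx (FBgn0003944) at chr3R:16656623-16734426, abd-A (FBgn0000014) at chr3R:16807214-16830049 and Abd-B (FBgn0000015) at chr3R:16927212-16972236. The listed windows hold the only annotated start site of Ubx, all 3 start sites of abd-A and 2 of the 6 start sites of Abd-B. Of the 29 windows, 7 overlap Ubx, 4 overlap abd-A, 4 overlap Abd-B, 6 lie between Ubx and abd-A, and 8 between abd-A and Abd-B. The stretch between Ubx and abd-A holds the noncoding RNA gene lncRNA:bxd (chr3R:16742125-16773189), which lies in the regulatory region upstream of Ubx, and Glut3 (chr3R:16788311-16790021), a glucose transporter gene by its name. The stretch between abd-A and Abd-B is crossed by lncRNA:iab8 (chr3R:16831116-16923231), the noncoding transcript of the iab regulatory region.

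The sequences just before the Hox start sites are shown because they tie the copy number windows to the promoters that lie in them. Each is the 250 bases before the most upstream start site within the listed windows, read on the minus strand from the RefSeq genome sequence of dm6, with matches to GCCAT (the core recognised by the Polycomb recruiter Pho) and GAGAG (recognised by GAGA factor) in capitals on either strand. Overlapping matches run together.
Ubx, chr3R:16734427-16734676: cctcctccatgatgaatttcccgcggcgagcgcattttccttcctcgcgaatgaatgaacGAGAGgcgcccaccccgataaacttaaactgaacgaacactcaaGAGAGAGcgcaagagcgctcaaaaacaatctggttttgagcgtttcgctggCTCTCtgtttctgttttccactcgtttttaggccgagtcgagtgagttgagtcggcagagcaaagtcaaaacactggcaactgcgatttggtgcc
abd-A, chr3R:16830050-16830299: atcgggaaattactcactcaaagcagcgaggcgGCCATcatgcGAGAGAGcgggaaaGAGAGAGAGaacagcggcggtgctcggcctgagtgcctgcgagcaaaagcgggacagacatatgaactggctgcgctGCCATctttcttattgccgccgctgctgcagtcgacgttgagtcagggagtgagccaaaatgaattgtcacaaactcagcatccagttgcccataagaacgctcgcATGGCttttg
Abd-B, chr3R:16944274-16944523: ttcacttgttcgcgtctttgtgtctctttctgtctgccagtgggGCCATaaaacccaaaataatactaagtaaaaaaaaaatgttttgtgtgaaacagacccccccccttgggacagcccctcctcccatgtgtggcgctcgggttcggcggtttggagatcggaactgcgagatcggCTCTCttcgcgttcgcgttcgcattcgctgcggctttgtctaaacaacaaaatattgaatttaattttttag

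The abd-A sequence held 3 GCCAT and 5 GAGAG matches, the Ubx sequence 0 and 4, and the Abd-B sequence 1 and 1. Of 13968 sequences of the same length before protein-coding genes, 35.7% held GCCAT and 25.7% held GAGAG. A match is a description of the sequence and not evidence of binding.

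Near the lowest part of the complex lie mir-iab-4 and mir-iab-8, a pair of microRNA genes read from opposite strands of the same hairpin (chr3R:16856275-16856342), which repress Hox messages of the complex. Their mature sequences, with the seed (bases 2 to 8) in capitals, show how the strands of shared DNA give different seeds.
mir-iab-4-RA: aCGUAUACugaauguauccuga
mir-iab-4-RB: cGGUAUACcuucaguauacguaac
mir-iab-8-RB: gGAUACAUucaguauacguuua
mir-iab-8-RA: uUACGUAUacugaagguauaccg

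The 4 mature sequences share no seed. The window that encodes them, chr3R:16850001-16860000, had an averaged RPM of 29.1 in HWT, 20.5 in H3K9R and 33.1 in H4K16R.

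In HWT, copy number formed a trough across the complex, highest at both outer ends and lowest at abd-A. The averaged RPM was 69.0 in the first window, within Ubx, and 68.3 in the last window, within Abd-B. In the middle it was 23.8 at chr3R:16830001-16840000, the window that holds the most upstream abd-A start site and the sequence printed above for it. The median over windows was 37.4 RPM. The H3K9R and H4K16R libraries gave a trough with its lowest point in the same window, which was the lowest of the 29 in each of the 6 libraries.

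**Figure D1:**
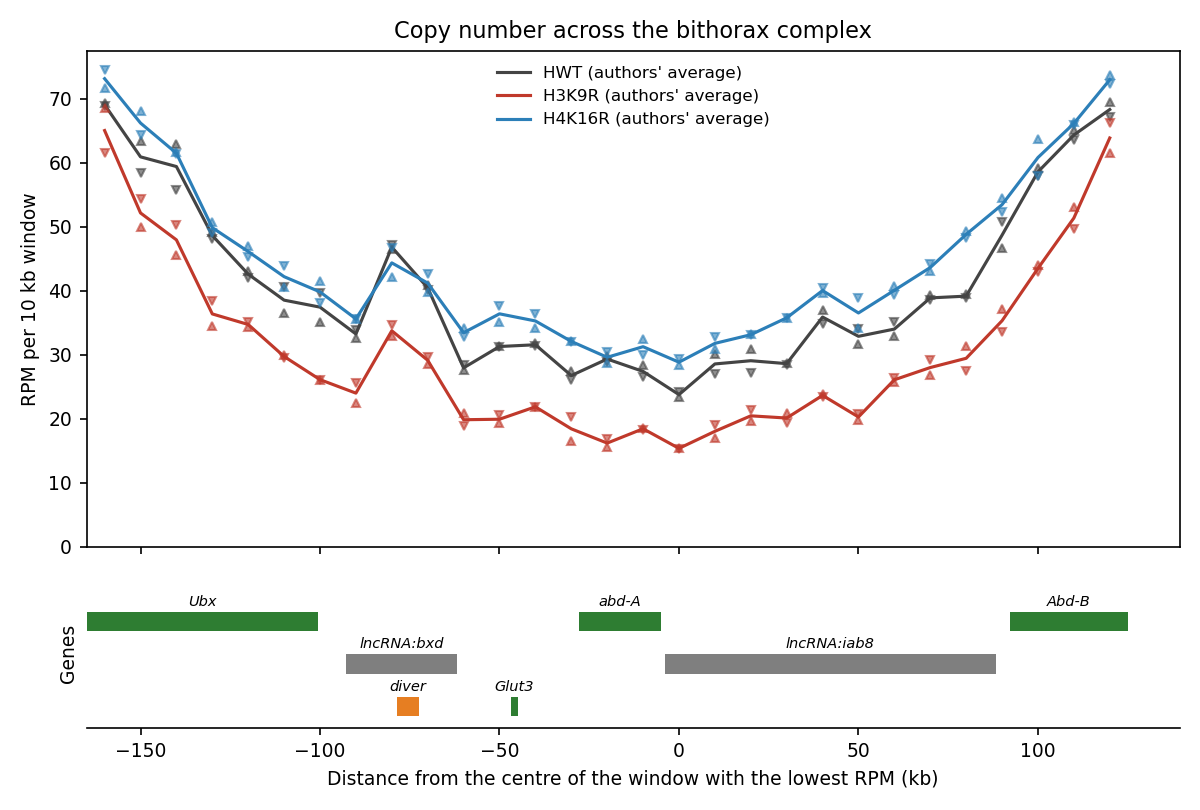
Copy number across the bithorax complex in RPM per 10 kb window, against the distance in kb from the centre of the window with the lowest RPM. Lines join the averages of 2 libraries, upward triangles mark the deeper and downward triangles the shallower library, and bars below show genes and the diver element to scale (Ubx and Abd-B run past the listed windows). H3K9R lies below HWT at every window and H4K16R above it at 28 of 29, with the lowest averages at 15.4, 23.8 and 28.8 RPM in H3K9R, HWT and H4K16R.

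Copy number of the complex was lower in H3K9R than in HWT. The averaged RPM was lower at 29 of 29 windows, as it was at 94.8% of the other 3R arm windows and 34.8% of all listed windows. The median over windows was 26.1 RPM in H3K9R against 37.4 RPM in HWT. The median log2 H3K9R/HWT ratio was -0.47, a 0.720-fold level, and medians from -0.50 to -0.44 were obtained with the 4 pairings of single libraries. The sum over the 290 kb was 889.0 RPM in H3K9R and 1182 RPM in HWT.

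Both H3K9R libraries were below both HWT libraries at 29 of 29 windows. The same held for 28.1% of all listed windows and for 86.5% of the other arm windows of 3R. With limma, fitted to log2(RPM + 1) in all 6 libraries, and a cutoff of 0.001 for the adjusted p (the study's p-value cutoff, applied here after Benjamini-Hochberg adjustment over 2177 windows), 20 of the 29 windows had a lower copy number in H3K9R and 0 a higher one. This cutoff called 7.17% of all listed windows and 7.74% of the other 3R arm windows lower in H3K9R. At an unadjusted p under 0.05, 27 of the 29 were lower and 0 higher, and 22.1% of all listed windows and 68.4% of the other 3R arm windows were lower. Limma with voom weights called 27 lower and 0 higher, against 15.7% and 54.2% lower in these sets. The count of 20 changed with the scaling and with the libraries used. It was 6 without the deeper HWT or the deeper H3K9R library, 8 without the shallower library of either genotype, 8 when RPM was scaled to those 10% of arm windows with the highest HWT RPM and 5 when scaled to the other 3R arm windows. In these settings between 1.84% and 2.99% of all listed windows were lower.

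Scaling to the other 3R arm windows raised every log2 H3K9R/HWT ratio by 0.22 and scaling to the top 10% arm windows raised it by 0.14. After either scaling 27 of the 29 windows stayed lower in H3K9R and the first and the last window were higher. The median over the complex was -0.26 and -0.34 under these scalings. Listed pericentric windows took 60463 RPM in H3K9R against 29499 RPM in HWT, and the share of reads that remained for sequence elsewhere changed through this by -0.047 on the log2 scale. Pericentric sequence outside the list is not in this value, and its effect on the arm ratios was not tested.

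The size of the difference changed along the cluster. The median log2 H3K9R/HWT ratio was -0.31 over the windows of Ubx, -0.48 between Ubx and abd-A, -0.60 over abd-A, -0.51 between abd-A and Abd-B and -0.38 over Abd-B. Without scaling, the windows that passed the limma cutoff numbered 2 of 7 in Ubx, 6 of 6 between Ubx and abd-A and 3 of 4 in abd-A. They were 7 of 8 between abd-A and Abd-B and 2 of 4 in Abd-B. The same cutoff called 7.17% of all listed windows and 7.74% of the other 3R arm windows lower. After scaling the total was 5 or 8, and it was not split by region. Over the outer 3 windows on each side the median log2 ratio was -0.27 (-0.32 to -0.16 over the pairings of libraries), against -0.51 (-0.54 to -0.50) over the 23 others.

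Ubx, which specifies the posterior thorax and the first part of the abdomen, had its least changed windows at its 3′ end, at the outer edge of the stretch. In the first window, chr3R:16670001-16680000, the RPM was 69.3 and 68.8 in the HWT libraries and 68.5 and 61.6 in the H3K9R libraries, written deeper first here and below. The libraries did not overlap, but the difference missed the limma cutoff (-0.09 ± 0.07 SE on the log2(RPM + 1) scale, adjusted p = 0.287). In the next window, chr3R:16680001-16690000, the RPM in HWT was 63.5 and 58.4, and in H3K9R it was 49.9 and 54.4 (limma log2 difference -0.22 ± 0.08 SE, adjusted p = 0.0265). The window with the Ubx start site, chr3R:16730001-16740000, had 35.2 and 39.7 RPM in HWT and 26.1 in both H3K9R libraries. It was 0.697-fold of HWT and passed the cutoff (limma log2 difference -0.50 ± 0.08 SE, adjusted p = 0.000516).

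abd-A, which specifies middle abdominal segments, held the window with the lowest H3K9R/HWT ratio of the complex, chr3R:16810001-16820000. Its RPM in HWT was 29.7 and 28.9, and in H3K9R it was 15.5 and 16.9, a 0.552-fold level (limma log2 difference -0.82 ± 0.07 SE, adjusted p = 1.04e-05). In the same window H4K16R had 28.7 and 30.5 RPM, overlapping HWT.

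The window with the lowest RPM, chr3R:16830001-16840000, had 23.4 and 24.2 RPM in HWT, 15.5 and 15.3 in H3K9R and 28.3 and 29.3 in H4K16R, so that the genotypes did not overlap. H3K9R was at 0.647-fold of HWT there (limma log2 difference -0.60 ± 0.06 SE, adjusted p = 3.38e-05). The window with the other abd-A start sites, chr3R:16820001-16830000, was at 0.673-fold, from 28.3 and 26.4 RPM in HWT to 18.6 and 18.3 in H3K9R (adjusted p = 0.000145 with limma). The remaining abd-A window, at the 3′ side of the gene, had a ratio of 0.689-fold with an adjusted p of 0.00116 in limma.

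Between abd-A and Abd-B lay the other windows with a ratio among the 3 lowest. In chr3R:16880001-16890000, within the transcripts of lncRNA:iab8 and MSAmiP, the RPM in HWT was 31.7 and 34.0, and in H3K9R it was 19.8 and 20.8, a 0.617-fold level (adjusted p = 9.07e-05 with limma). In chr3R:16840001-16850000 the RPM in HWT was 30.1 and 27.0, and in H3K9R it was 17.0 and 19.1, a 0.631-fold level (adjusted p = 0.000166 with limma). The libraries of the genotypes were well apart in both. At the window of mir-iab-4 and mir-iab-8 the level was 0.704-fold (adjusted p = 0.000672 with limma).

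Abd-B, which specifies posterior abdominal segments, lay on the rising side of the trough. The window with the Abd-B start site shown above, chr3R:16940001-16950000, had 65.2 and 63.5 RPM in HWT and 53.1 and 49.6 in H3K9R, a 0.798-fold level that missed the cutoff (adjusted p = 0.00199 with limma). The window with the other listed start site, chr3R:16930001-16940000, was at 0.743-fold and passed it, with 59.2 and 58.0 RPM in HWT and 44.0 and 42.9 in H3K9R (adjusted p = 0.000606 with limma). The HWT and H3K9R libraries were apart in both windows. In the last window, chr3R:16950001-16960000, the RPM in HWT was 69.4 and 67.2, and in H3K9R it was 61.5 and 66.2. The genotypes were separated there by less than the distance between the H3K9R libraries (limma log2 difference -0.10 ± 0.07 SE, adjusted p = 0.207).

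**Figure D2:**
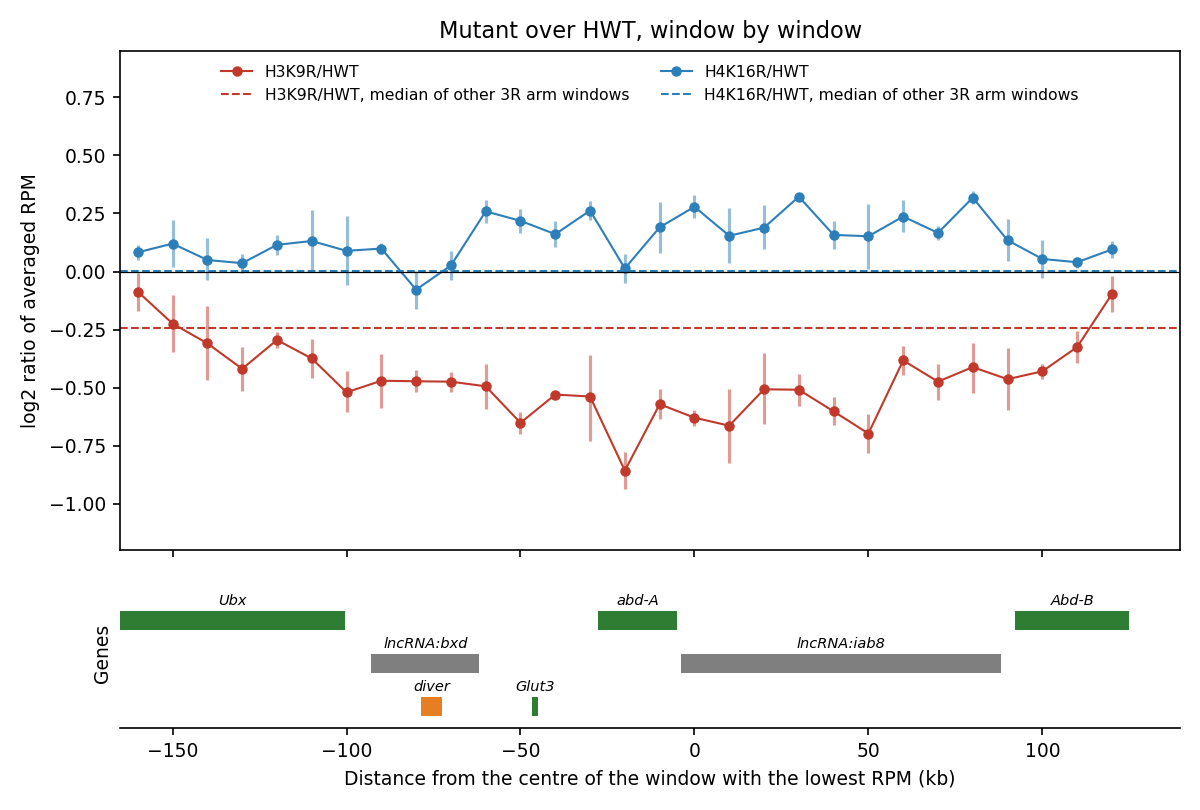
log2 ratio of averaged RPM, mutant over HWT, at each 10 kb window against the distance in kb from the centre of the window with the lowest RPM. Points are ratios of averages, vertical bars span the 4 pairings of a mutant with an HWT library, and dashed lines mark the medians of the other 3R arm windows (-0.24 for H3K9R and 0.00 for H4K16R). The H3K9R/HWT ratio runs from -0.09 at the outer ends to -0.86 in abd-A, and the H4K16R/HWT ratio from -0.08 to 0.32.

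In H4K16R the averaged RPM of the complex was slightly above that of HWT. The median over windows was 40.1 RPM in H4K16R, and the median log2 H4K16R/HWT ratio was 0.13, a 1.10-fold level, with 0.11 to 0.14 over the 4 pairings of libraries. The ratio was above 0 at 28 of 29 windows, also after either scaling. The exception was a window with repeated sequence that is described below. Without scaling, the ratio was below 0 at 47.7% of the other 3R arm windows and 39.0% of all listed windows. The comparison shares its HWT libraries with that of H3K9R.

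The H4K16R libraries both exceeded the HWT libraries at 22 of 29 windows, as they did at 37% of all listed windows and 21.9% of the other 3R arm windows. With limma, 0 of the 29 windows had a higher copy number in H4K16R and 0 a lower one at the cutoff of 0.001, where 1.29% of all listed windows and 0% of the other 3R arm windows were higher. At an unadjusted p under 0.05, 12 of the 29 were higher and 0 lower, where 21.9% of all listed windows and 2.58% of the other 3R arm windows were higher. Limma with voom weights called 2 higher and 0 lower, where the shares were 2.43% and 0%.

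At an adjusted p under 0.05, 3 of the 29 windows were higher in H4K16R and 0 lower. The share of all listed windows that were higher at this cutoff was 11.9%, so the count was not above that background, while it was 0% for the other 3R arm windows. Among the 3 was the window with the lowest RPM, described above, where H4K16R was at 1.21-fold of HWT (limma log2 difference 0.27 ± 0.06 SE, adjusted p = 0.0265). The others were chr3R:16860001-16870000 and chr3R:16910001-16920000 in the iab region, both at 1.25-fold (adjusted p = 0.0204 and 0.0340 with limma), and were singled out after their values were seen.

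By region the median log2 H4K16R/HWT ratio was 0.09 over Ubx, 0.13 between Ubx and abd-A, 0.23 over abd-A, 0.18 between abd-A and Abd-B and 0.07 over Abd-B. At the Ubx start site window H4K16R had 41.5 and 38.1 RPM, which overlapped HWT. The Abd-B start site window had 66.3 and 65.9 RPM in H4K16R, a 1.03-fold level, with both libraries just above HWT.

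Set directly against each other, the mutants differed more than either did from HWT. This follows from their ratios to HWT, which had opposite signs at 28 of 29 windows, and is not a separate result. The averaged RPM was lower in H3K9R than in H4K16R at 29 of 29 windows. This also held at 96.1% of the other 3R arm windows and 35.6% of all listed windows. The median log2 H3K9R/H4K16R ratio of the complex was -0.62, a 0.651-fold level (-0.66 to -0.60 over the 4 pairings). With limma, 23 windows had a lower copy number in H3K9R and 0 a higher one, where 7.58% of all listed windows and 10.3% of the other 3R arm windows were lower. The count was 15 when RPM was scaled to the other 3R arm windows, where 2.85% of all listed windows were lower. It was below 23 also with any single library left out. With a library of either mutant left out, the median log2 ratio was -0.64 to -0.59. The lowest ratio was at the window with the lowest RPM, at 0.533-fold (limma log2 difference -0.87 ± 0.06 SE, adjusted p = 3.57e-06).

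The shape of the trough was compared within each library, where a difference in library scaling cancels. The lowest window was at 33.7% and 35.5% of the mean of the outermost windows in the HWT libraries, 23.8% and 23.9% in H3K9R and 39.0% and 39.98% in H4K16R. The trough was therefore deepest relative to its ends in both H3K9R libraries and shallowest in both H4K16R libraries, with no overlap. The number of windows under 50% of the mean of the outermost windows from the averages was 13 for HWT, 19 for H3K9R and 11 for H4K16R.

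The sides of the trough were also steeper in H3K9R. Slopes are those of a straight line fitted to log2 RPM over the windows of a side, without the windows that hold the diver element described below. From the first window to the lowest one the slope was -0.84 and -0.83 per 100 kb in the HWT libraries, -1.15 and -1.14 in H3K9R and -0.76 and -0.73 in H4K16R. From the lowest window to the last one it was 1.17 and 1.23 per 100 kb in HWT, 1.57 and 1.48 in H3K9R and 1.12 and 1.01 in H4K16R. Libraries of different genotypes did not overlap in either slope. In all 6 libraries the side towards Abd-B was steeper than the side towards Ubx. With 2 libraries against 2, the exact permutation test (two-sided) gave p = 0.33 for the depth and for each slope, in each mutant against HWT, the smallest p it allows.

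**Figure D3:**
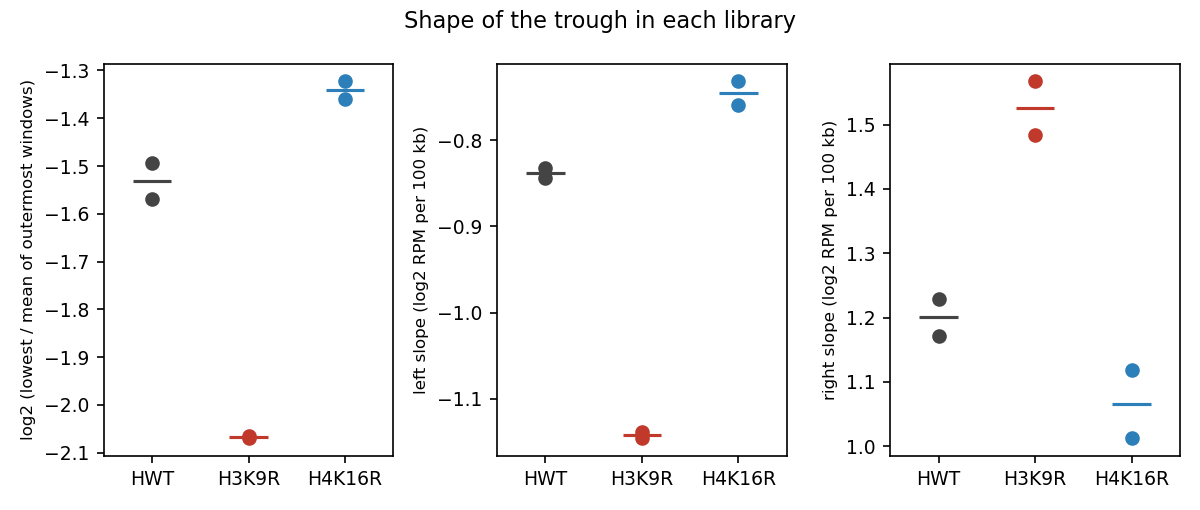
Shape of the trough in each library of HWT, H3K9R and H4K16R. Left, log2 of the lowest window over the mean of the outermost windows. Middle and right, slope of a straight line fitted to log2 RPM, per 100 kb, on the side of Ubx (without the windows with diver) and on the side of Abd-B. Points are libraries, horizontal lines their mean, and axes do not start at 0. In each panel H3K9R lies on one side of HWT (depth near -2.07 against -1.57 and -1.49) and H4K16R on the other.

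A transposable element interrupted the left side of the trough. The windows chr3R:16750001-16760000 and chr3R:16760001-16770000 hold a copy of the retrotransposon diver (chr3R:16756375-16762507, 6.13 kb) and stood above their neighbours in all 3 genotypes. The former had an averaged RPM of 46.8 in HWT, 33.7 in H3K9R and 44.3 in H4K16R, and it was the only window of the complex with H4K16R below HWT, where the libraries overlapped (46.5 and 47.1 RPM in HWT, 42.1 and 46.6 in H4K16R). Of their 100-base sequences 63.7% and 75.9% occur once in the assembly, whereas this share was at least 99.7% in the other 27 windows. The authors kept only reads above a mapping quality minimum, and whether reads from other copies of the element were counted in these windows was not tested. Without these windows the median log2 ratio was -0.47 for H3K9R/HWT and 0.15 for H4K16R/HWT. Of the 27 windows left, 18 passed the limma cutoff as lower in H3K9R, as did 7.17% of all listed windows.

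The complex was then set against the other 155 arm windows of 3R in the list. Their median log2 ratio was -0.24 for H3K9R/HWT (quartiles -0.32 and -0.14) and 0.00 for H4K16R/HWT (quartiles -0.05 and 0.05). The bithorax median was thus lower by 0.23 for H3K9R/HWT, with differences of -0.27 to -0.19 over the 4 pairings of libraries, and higher by 0.13 for H4K16R/HWT, with 0.11 to 0.14 over the pairings. Both differences were larger than their spread over the pairings. The pairings reuse the same libraries, so this spread is not an estimate of the error between replicates.

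Within each library, the median log2 RPM of the complex minus that of the other 3R arm windows was -0.51 and -0.43 in HWT, -0.78 and -0.77 in H3K9R and -0.33 and -0.35 in H4K16R. Neither mutant overlapped HWT, and the exact permutation test over libraries (two-sided) gave p = 0.33 for each mutant against HWT, the smallest p that 2 against 2 allows. Other 3R arm windows had a higher copy number in HWT, with a median of 51.8 RPM. Among the 137 of them within the range of HWT RPM of the complex the median log2 ratio was -0.25 for H3K9R/HWT and 0.00 for H4K16R/HWT, with a median of 51.2 RPM in HWT.

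The lowest averaged RPM of the complex in H3K9R, 15.4, was also the lowest of all 3R arm windows in that genotype. In HWT 7 other 3R arm windows were below the lowest bithorax window, and in H4K16R 15 were.

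Within the complex the H3K9R/HWT ratio followed copy number. To keep the axes free of shared libraries, the ratio was set against the RPM of H4K16R, which does not enter it. Over the 29 windows Pearson's r was 0.84 and Spearman's rho 0.85, and the log2 ratio rose by 0.35 for each doubling of RPM. Over the other 155 windows of the 3R arm r was 0.38 and rho 0.52. For H4K16R/HWT against the RPM of H3K9R, r was -0.51 and rho -0.57 in the complex, and r was -0.15 and rho -0.12 over the other 3R arm windows. These are descriptions across windows, since neighbouring windows come from the same libraries and share their position in the trough. GC content, between 38.5% and 45.4% in the complex, had an r of 0.07 with H3K9R/HWT and of -0.26 with H4K16R/HWT.

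**Figure D4:**
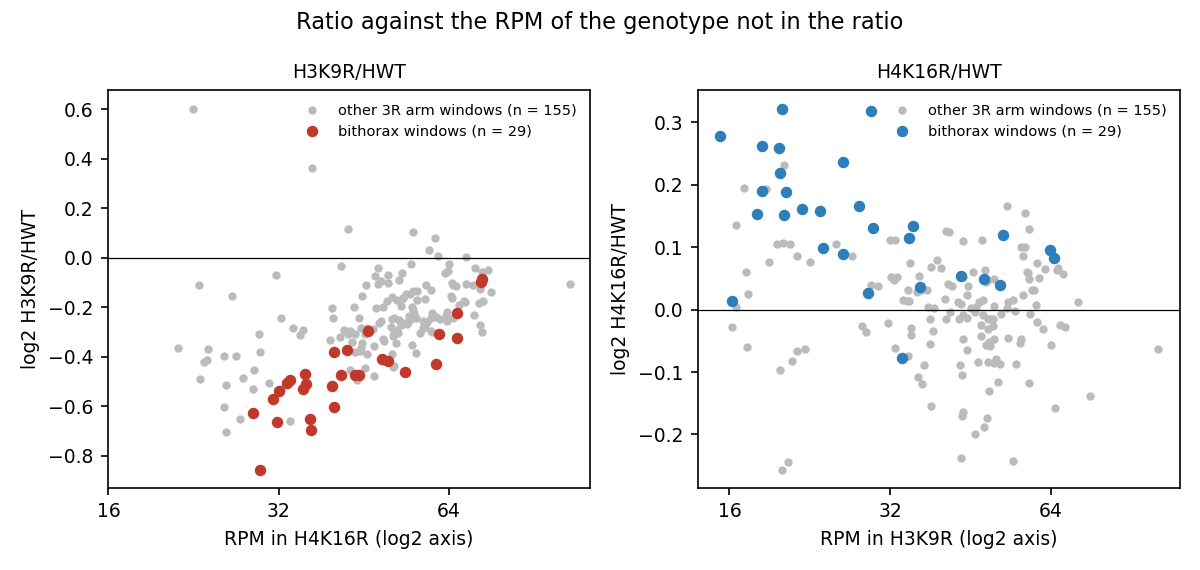
log2 mutant/HWT ratio of each 3R arm window against the RPM of the genotype that is not in the ratio, on a log2 axis. Coloured points are the 29 bithorax windows and grey points the other 155 arm windows of 3R. Bithorax windows of low RPM have the lowest H3K9R/HWT ratios (r = 0.84) and tend to have the higher H4K16R/HWT ratios (r = -0.51).

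Adjoining listed windows formed 12 stretches on the arm of 3R, of which the bithorax complex was the longest. Its median log2 H3K9R/HWT ratio of -0.47 was the lowest of the 12, the other 11 lying between -0.32 and 0.03, and its median H4K16R/HWT ratio of 0.13 was the highest, the other 11 lying between -0.11 and 0.10. The next longest stretch, 250 kb at chr3R:28010001-28260000, with an HWT minimum of 23.5 RPM, had medians of -0.32 and -0.02. Among the 49 arm stretches of all chromosomes, 4 had a lower median H3K9R/HWT ratio than the complex and 6 a higher median H4K16R/HWT ratio.

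At the window with the lowest HWT RPM of each stretch, the complex had the lowest H3K9R/HWT ratio of the 49, at -0.63, and 4 stretches had a higher H4K16R/HWT ratio than its 0.28. On the arm of 3R, the H3K9R/HWT ratios nearest to that of the complex were -0.51 in chr3R:28010001-28260000 and -0.48 in chr3R:22120001-22300000. Of the other 11 stretches, 4 had an H3K9R/HWT ratio above 0 at that point, between 0.10 and 0.60. The highest was in chr3R:7550001-7720000. These ranks describe stretches of the same libraries and carry no test.

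**Figure D5:**
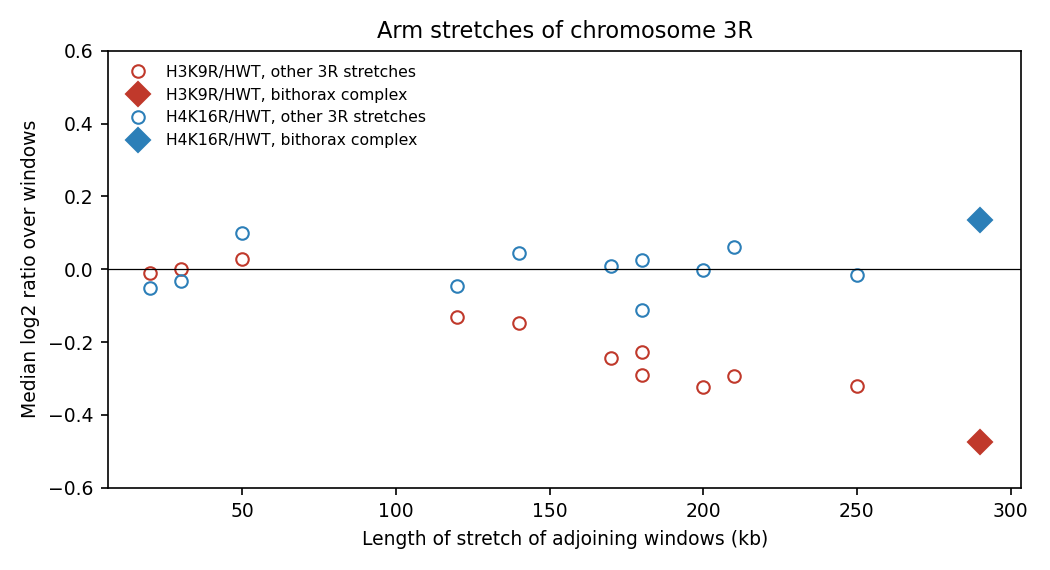
Median log2 mutant/HWT ratio over the windows of each of the 12 stretches of adjoining arm windows on 3R, against the length of the stretch in kb. Diamonds mark the bithorax complex (290 kb, -0.47 for H3K9R and 0.13 for H4K16R) and open circles the other 11 stretches.

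Other genes taken as Polycomb targets were looked up among the listed windows. Of 72 such genes outside the complex, named by symbol with no check of Polycomb binding here, 5 overlapped a listed arm window. None of the 9 genes of the Antennapedia complex, the other Hox cluster of the fly, did. The share of all genes that overlap a listed arm window was not computed. These counts therefore do not show whether such genes are rare or common in the list. The 14 windows of hth, which encodes a Hox cofactor, had a mean of 48.6 RPM in HWT and a median log2 H3K9R/HWT ratio of -0.35. By limma 4 of them were lower in H3K9R, as were 7.17% of all listed windows and 7.74% of the other 3R arm windows, which include those of hth. The single window of esg, a zinc finger gene, was at -0.52 and was lower by limma, and that of sna, another zinc finger gene, was at -0.61 and missed the cutoff. The window of tsh was at -0.25 and those of tio at 0.01, and neither passed. For H4K16R/HWT the medians of the 5 genes were between -0.13 and 0.04, and 0 of their windows were higher or lower by limma.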

How the data were processed

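Per the labels and the study's methods, the authors trimmed paired reads with Trimmomatic (0.36), aligned them to dm6 with Bowtie2 (2.3.2), kept reads above a mapping quality minimum with SAMtools (1.6), counted them in 10 kb windows with BEDTools and called domains in HWT with CNVnator. The deposited values are RPM, normalized to library depth and averaged over 2 replicates by the authors, and the tables hold no column of a single replicate.

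For each genotype, the pair of library totals that turned every average into whole reads was searched for, and 100% of the 2195 averages came out whole. On simulated data the search returned the simulated totals. Repeated rows (6 of 2195) were counted once. Ratios carry no pseudocount. limma (3.58.1, R 4.3.3) took log2(RPM + 1) of all 6 libraries at the 2177 windows that held any read, with Benjamini-Hochberg adjustment. On simulated libraries with the depths of all 6 libraries, 200 of 2177 windows were raised 1.5-fold in H3K9R. In H3K9R against HWT, limma recovered 186 with 0 false calls. Lowered windows and smaller changes were not simulated. The changed windows had at least 5 RPM, and the spread beyond counting error (5.08%) came from the HWT libraries only. Over the bithorax windows the H3K9R libraries differed more from each other (median 0.11 in log2 RPM, against 0.05 in HWT). The rate of false calls in the real libraries is therefore not given by this simulation. The Student's T test of the methods was not used, because windows of the same libraries are not replicates. Sensitivity to pseudocount, a minimum of 5 RPM, scaling, test, cutoff and single libraries was checked, and the windows with diver were left out in a setting chosen after seeing the data, as was the count of H3K9R against H4K16R. Gene positions came from the Ensembl annotation of the same assembly and sequences from RefSeq.

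Windows named are those with a Hox start site, the 3 highest and 3 lowest H3K9R/HWT ratios, the lowest RPM, and both ends, and others where stated. Members and lists were chosen with earlier results of these data known.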

Additional observations from a re-analysis of the deposited data

How the results depend on the processing

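No paired analysis was possible because the averages carry no replicate numbers. Over 11 alternatives each, no median log2 ratio changed sign. They ranged from -0.50 to -0.26 for H3K9R/HWT, 0.12 to 0.15 for H4K16R/HWT and -0.64 to -0.42 for H3K9R/H4K16R, and relative to the other 3R arm windows from -0.26 to -0.20 and 0.12 to 0.15. The count of 20 windows lower in H3K9R was 13 with a pseudocount of 0.1 RPM, 5 scaled to the other 3R arm windows, 8 scaled to the top 10% arm windows, and 6 to 15 with any library left out. A genotype left with 1 library was assumed to vary like the others. The count of 0 windows higher in H4K16R was 2 with voom and 3 at an adjusted p of 0.05. In these settings 2.43% and 11.9% of all listed windows were higher. The count of 23 windows lower in H3K9R than in H4K16R was 15 scaled to the other 3R arm windows and 15 to 22 with any library left out. Fewer libraries leave fewer degrees of freedom, and the cause of the other changes was not tested. Depth limits a single window to 285 reads at the least.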
